A study of Mus musculus with 6 samples.

Results

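Lysine deacetylases, lysine acetyltransferases and bromodomain proteins remove, add and bind the acetyl group on lysine side chains. Their transcripts were measured here in mouse cells at day 2 of beige adipocyte differentiation. The genes were taken by symbol: every gene named Hdac, Sirt, Kat or Brd with a number or letter, together with Ep300, Crebbp and Hat1. This gave 37 of the 56884 gene IDs listed in each library, made up of 11 histone deacetylases (HDACs), 7 sirtuins, 11 acetyltransferases and 8 genes named Brd. All 37 reached a TPM of 0.5 in 3 or more of the 6 libraries, where TPM is the share of a gene among all transcripts, corrected for gene length and brought to a fixed total per library.

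Both groups came from a cell line of the stromal vascular fraction of mouse subcutaneous white adipose tissue (scWAT SVF), the fraction that holds adipocyte precursors. One group overexpressed HA-tagged PPARγ2 K382Q, in which glutamine stands in for lysine at position 382 and resembles acetylated lysine. The other overexpressed PPARγ2 K382R, also HA-tagged, in which arginine keeps the positive charge of unacetylated lysine. Each mutant was brought in with a retroviral vector followed by puromycin selection, into cells that also carry the endogenous *Pparg* gene. Both were induced with isobutylmethylxanthine at 500 μM, indomethacin at 125 μM, dexamethasone at 2 μg/mL, insulin at 5 μg/mL, T3 at 1 nM and rosiglitazone, a PPARγ agonist, at 0.5 μM. Each group had 3 biological replicates. Cells with wild-type PPARγ2 or empty vector were not analysed here, so every difference below is K382Q against K382R and neither mutant serves as an unmodified control. The labels do not say whether the replicates were separate transductions, and p-values measure only the spread between these samples.

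Zinc-dependent HDACs and NAD-dependent sirtuins hydrolyse the acetyl-lysine that acetyltransferases build from acetyl-CoA. Bromodomains are the pockets through which many chromatin proteins dock on acetylated lysine. In adipocyte differentiation, PPARγ recruits acetyltransferases such as CBP and p300 when bound by a ligand and corepressors with HDAC3 when not, and PPARγ itself is acetylated and is deacetylated by sirtuins.

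The depth, read as aligned bases, was 5.95 to 7.50 Gb in K382Q and 6.53 to 8.15 Gb in K382R libraries, and K382Q and K382R libraries lay apart on the first principal component, with 61.3% of the variance. Of 10 adipocyte markers 3 were higher and 3 lower in K382Q cells, beside 11.1% and 36.9% of all genes tested. After median-ratio scaling, described below, 6 were higher and 2 lower, beside 19.8% and 20.4%. The sum of the 10, 54575 to 58412 TPM against 45214 to 46480, was carried by *Fabp4* (means of 47893 and 37837 TPM), while *Adipoq* fell from 360.0 to 148 TPM. Of the 6 progenitor and fibroblast markers tested, 5 were lower in K382Q cells, beside 36.9% of all genes. The same 5 were lower after median-ratio scaling, beside 20.4%. *Vim* rose from 683 to 805 TPM and made up most of the sum in K382Q cells (1299 to 1349 against 1541 to 1597 TPM in K382R cells). Of 9 brown and beige markers 4 passed the TPM filter and were higher, beside 11.1% of all genes. *Ucp1* and *Cidea* passed it only through their K382Q libraries (for *Ucp1*, 0.980, 0.954 and 0.816 TPM against 0.162, 0.0439 and 0.0532). *Elovl3* (means of 279 TPM in K382Q and 130 in K382R cells) and *Cox7a1* (74.2 and 15.6 TPM) were above it in both groups. *Zic1*, of the brown lineage, was at 0 in every library, and *Tmem26*, left out by the filter, was at 0.363 against 0.498 TPM in the means. Of 8 leukocyte markers *Cd68* passed the filter, at 3.17 to 5.10 TPM over both groups, and no other exceeded 0.143 TPM in any library. *Pparg*, in which reads of the transgene and the endogenous gene cannot be told apart, was listed at 1333, 1164 and 1104 TPM in K382Q and at 1590.0, 1632 and 1612 TPM in K382R cells, a log2 fold change of -0.43 (limma, SE 0.0638, adjusted p = 0.000977). The part of these marker and *Pparg* differences in the changes below was not tested, and in such bulk RNA fewer cells of a type and less RNA per cell cannot be told apart.

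RefSeq windows of 300 bases at the transcription starts (250 bases before to 50 after the start, table build GRCm38.p6) were matched to 31 of the 37 genes, with the window nearest to the GENCODE start taken where a gene had several, and those without one included *Brd8*, *Hdac1*, *Hdac10*, *Hdac3* and *Kat6a*. The motifs searched, on both strands, were the box CCAAT, the ETS factor motif CCGGAAG, the nuclear receptor half-site AGGTCA, the element DR1 (2 half-sites in direct repeat with 1 base between) and the NRF1 palindrome. The windows shown are those of *Sirt3* (the largest rise among the genes), *Hdac7* (the largest fall on the log2(TPM + 0.5) scale, and the one of 4 windows nearest to the GENCODE start), *Hdac5* (a paralog of *Hdac7* that moved the other way) and *Sirt6* (the only one of the 31 with the NRF1 motif). They are written from 5′ to 3′ in the direction of the gene, with capitals on the motif matches, at GRCm39 positions found by exact match.
Sirt3, chr7:140461733-140462032, minus strand: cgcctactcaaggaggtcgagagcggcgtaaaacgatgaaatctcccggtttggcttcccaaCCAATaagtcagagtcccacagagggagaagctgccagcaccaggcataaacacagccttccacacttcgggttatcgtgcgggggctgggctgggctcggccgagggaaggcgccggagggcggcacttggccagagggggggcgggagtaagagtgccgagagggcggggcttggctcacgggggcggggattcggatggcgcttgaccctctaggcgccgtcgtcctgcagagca
Hdac7, chr15:97729599-97729898, minus strand: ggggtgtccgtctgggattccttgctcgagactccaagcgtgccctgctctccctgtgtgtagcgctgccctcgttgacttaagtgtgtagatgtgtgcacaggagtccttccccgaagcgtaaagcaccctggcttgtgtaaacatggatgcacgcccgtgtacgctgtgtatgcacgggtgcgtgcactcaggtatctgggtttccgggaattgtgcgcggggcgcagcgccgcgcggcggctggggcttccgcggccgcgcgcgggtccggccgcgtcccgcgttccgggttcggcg
Hdac5, chr11:102120949-102121248, minus strand: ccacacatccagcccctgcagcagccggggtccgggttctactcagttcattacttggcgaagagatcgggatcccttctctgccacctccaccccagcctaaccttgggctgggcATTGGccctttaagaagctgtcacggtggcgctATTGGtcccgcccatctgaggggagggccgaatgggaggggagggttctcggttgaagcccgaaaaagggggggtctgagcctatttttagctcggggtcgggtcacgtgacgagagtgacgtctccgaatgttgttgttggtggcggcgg
Sirt6, chr10:81463351-81463650, minus strand: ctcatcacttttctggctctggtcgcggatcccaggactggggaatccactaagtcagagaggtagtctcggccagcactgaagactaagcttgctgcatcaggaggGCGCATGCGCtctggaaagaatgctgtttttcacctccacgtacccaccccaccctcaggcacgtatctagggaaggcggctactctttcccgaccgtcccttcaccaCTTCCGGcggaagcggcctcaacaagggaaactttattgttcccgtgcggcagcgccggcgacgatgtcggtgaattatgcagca
The capitals in *Sirt3* and *Hdac5* are matches to CCAAT or its complement, and *Sirt6* carries the NRF1 palindrome and, on the opposite strand, CCGGAAG. The *Hdac7* window shown holds none of the 5. The CCAAT box was found in 14 of 31 windows (45.2%), against 38.06% of the windows of genes passing the same TPM filter. Here and below, the first share counts 1 window per gene, and the second counts every window of a gene, so the units differ. CCGGAAG was found in 7 (22.6%) against 17.38%, and the NRF1 palindrome in 1 (3.2%) against 2.01%. AGGTCA was found in 4 (12.9%) against 12.84%, and DR1, the form bound by PPARγ with RXR, in 0 against 0.04%. A match is a description of letters and not of a bound site, and every DR1 also holds AGGTCA.

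Between K382Q and K382R cells, most of the 37 genes changed by modest amounts, with falls outnumbering rises about as over all genes. Genes were tested with limma on log2(TPM + 0.5) over 15426 genes with Benjamini-Hochberg adjustment, and an adjusted p under 0.05 was a call. In K382Q cells 5 genes were higher (*Sirt3*, *Hdac5*, *Hat1*, *Sirt6* and *Hdac6*), or 13.5% of the 37 against 11.1% of all genes tested. Another 18 were lower, or 48.6% against 36.9% of all genes. Without *Hdac9*, which only its K382R libraries carried over the TPM filter, 17 of 36 were lower. The K382Q and K382R libraries did not overlap for 24 of the 37 (64.9%) against 57.0% of all genes. On the log2(TPM + 0.5) scale none of the 37 changed more than 2-fold, a size reached with a call by 3.88% of all genes. In mean TPM *Hdac9* was at 0.428 of its K382R level, and with a pseudocount of 0.1 it alone passed 2-fold. The log2 fold changes of the 37 ran from -0.71 to 0.56, a range that held 88.8% of all genes, with a median of -0.17 against -0.14 over all genes.

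The median of all genes was thus below 0 as well, and the cause was not tested. Most changes of the 37 genes are also given after median-ratio scaling, which sets the median gene near 0 (0.0032). On this scale 9 of the 37 were higher (24.3% against 19.8% of all genes) and 9 lower (24.3% against 20.4%), with a median of -0.02. All 5 rises held on this scale. Of the 17 falls without *Hdac9*, 8 held (among them *Hdac1*, *Hdac7*, *Sirt1*, *Kat2a*, *Kat6a*, *Crebbp* and *Brd2*) and 9 did not pass the test (*Hdac2*, *Hdac4*, *Hdac10*, *Sirt4*, *Sirt7*, *Ep300*, *Kat2b*, *Kat14* and *Brd1*). *Hdac3*, *Hdac8*, *Kat6b* and *Brd3* were higher on this scale but had no call on the TPM scale.

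**Figure D1:**
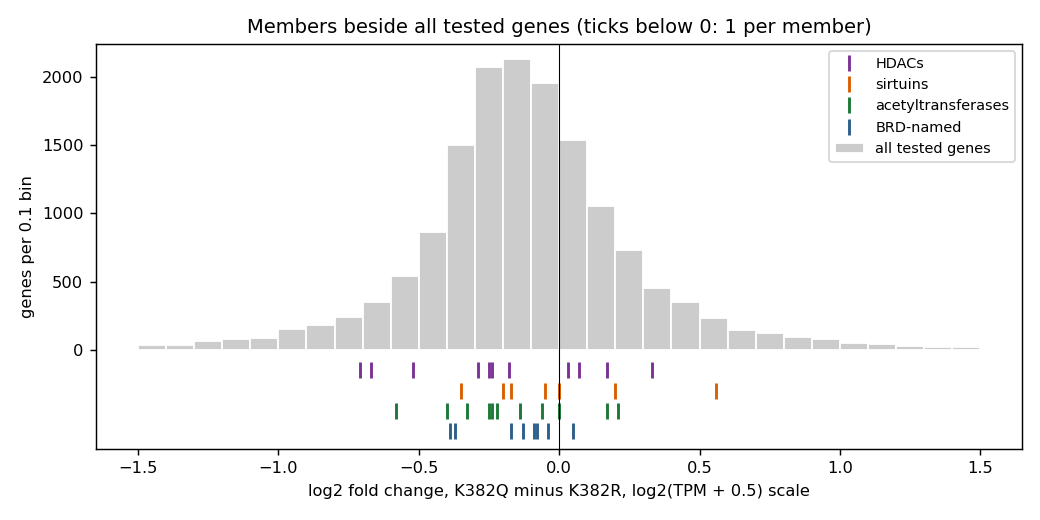
Histogram of the log2 fold change (K382Q minus K382R, log2(TPM + 0.5) scale, x axis) of all 15426 genes tested, as genes per bin of 0.1 (y axis), with 1 tick below the axis for each of the 37 genes by family. Genes beyond 1.5 in either direction (118 low and 58 high) lie outside the plot, and the 37 genes sit between -0.71 and 0.56 around a common median slightly below 0.

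The class I HDACs are nuclear enzymes, and their summed level was 277 ± 8.74 TPM in K382Q and 318 ± 1.62 in K382R cells (SD, n = 3). The log2 ratio of these sums was -0.20, and -0.05 after median-ratio scaling. The largest difference lay in *Hdac1*, a catalytic subunit of the Sin3, NuRD and CoREST complexes. *Hdac1* (GRCm39 chr4:129409897-129436506) was at 72.0, 62.9 and 70.2 TPM in K382Q and at 96.6, 99.3 and 98.9 TPM in K382R cells. Every K382Q library was below every K382R library, and the mean was lower by 30.5% (log2 fold change -0.52, SE 0.0523, adjusted p = 0.000131 with limma). The fall remained on the median-ratio scale at -0.37 (adjusted p = 0.000645). *Hdac2*, which shares those complexes, was at 109, 105 and 113 TPM in K382Q and at 123, 119 and 127 TPM in K382R cells. These groups did not overlap either, but the change of -0.18 (adjusted p = 0.00649) was close to that of the median gene, and on the median-ratio scale it was -0.03 (adjusted p = 0.623). *Hdac3*, the catalytic subunit of the NCoR and SMRT corepressors, lay between 79.7 and 92.5 TPM with overlapping groups and a change of 0.03 (adjusted p = 0.741), or 0.18 (adjusted p = 0.0411) on the median-ratio scale. *Hdac8*, which deacetylates a cohesin subunit, lay between 11.2 and 12.8 TPM with overlapping groups and a change of 0.07 (adjusted p = 0.359), or 0.22 (adjusted p = 0.0247).

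Within each library, *Hdac1* was measured at 0.658, 0.599 and 0.623 of the level of *Hdac2* in K382Q and at 0.783, 0.831 and 0.778 in K382R cells. Such a ratio does not move with the scaling of a library. It was compared for 12 pairs of related genes that were picked with these results known, so that the groups do not overlap in any of them is a description with no reference value. An exact two-sided permutation test of 3 against 3 libraries cannot go below p = 0.1, and every pair had that value, also after adjustment over the 12.

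The class IIa HDACs, weak enzymes that shuttle between nucleus and cytoplasm and bind MEF2 factors, did not move together. *Hdac5* (chr11:102085258-102120992) was at 20.3, 23.6 and 19.8 TPM in K382Q and at 17.1, 17.01 and 16.1 TPM in K382R cells. All 3 K382Q libraries were above all 3 K382R libraries, by 26.7% in the mean (log2 fold change 0.33, SE 0.0739, adjusted p = 0.0075 with limma). *Hdac7* (chr15:97690545-97742383) was at 11.7, 11.9 and 11.5 TPM in K382Q and at 19.9, 18.6 and 19.8 TPM in K382R cells. Its mean was lower by 39.7%, a gap many times the spread within either group (log2 fold change -0.71, SE 0.0543, adjusted p = 3.54e-05). On the median-ratio scale the changes were 0.48 for *Hdac5* (adjusted p = 0.00214) and -0.56 for *Hdac7* (adjusted p = 0.000151). *Hdac5* was thus at 1.73, 1.98 and 1.72 times the level of *Hdac7* in K382Q cells and at 0.858, 0.915 and 0.814 times in K382R cells, so the order of these paralogs was opposite in the groups.

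Both genes share exonic bases with a neighbour on the other strand, and nothing in the sources used here says that strand was used in the counting. *G6pc3* covers 29.99% of the annotated exon bases of *Hdac5* and was at 31.3 TPM in K382Q and 33.1 TPM in K382R cells (log2 fold change -0.08, adjusted p = 0.219 with limma). The part of shared reads in the *Hdac5* values was not tested. *Slc48a1*, a heme transporter gene, covers 24.12% of those of *Hdac7* and fell from 128 to 93.0 TPM (-0.45, adjusted p = 2.67e-05), so a share of the *Hdac7* fall cannot be told apart from it.

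*Hdac4*, the first member of this class, was at 10.6, 9.53 and 10.1 TPM in K382Q and at 11.9, 12.03 and 12.3 TPM in K382R cells. It was changed by -0.25 on the log2 scale (adjusted p = 0.0128) and by -0.11 on the median-ratio scale (adjusted p = 0.196). *Hdac9* was the lowest of the 37, at 0.373, 0.526 and 0.275 TPM in K382Q and at 0.920, 1.01 and 0.812 TPM in K382R cells. Its K382R libraries alone carried it over the TPM filter, so its fall of 0.67 on the log2 scale (adjusted p = 0.0205) is a description only. That call was lost without K382Q replicate 3, K382R replicate 1 or K382R replicate 2 (adjusted p = 0.0653, 0.0548 and 0.0672).

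*Hdac6* and *Hdac10* form class IIb and moved in opposite directions. *Hdac6*, a cytoplasmic deacetylase of tubulin, was at 51.3, 47.3 and 48.7 TPM in K382Q and at 43.0, 44.1 and 43.5 TPM in K382R cells. The groups did not overlap, and the rise of 12.8% (log2 fold change 0.17, SE 0.0417, adjusted p = 0.011 with limma) was larger on the median-ratio scale at 0.32 (adjusted p = 0.000379). *Hdac10*, a polyamine deacetylase, was at 16.3, 15.2 and 14.3 TPM in K382Q and at 19.7, 18.9 and 17.9 TPM in K382R cells. Its fall of 0.29 on the log2 scale (adjusted p = 0.00789) was -0.15 on the median-ratio scale (adjusted p = 0.112). *Hdac11*, the single class IV enzyme, was at 5.92, 7.58 and 5.61 TPM in K382Q and at 7.23, 7.73 and 7.65 TPM in K382R cells. These groups overlapped through K382Q replicate 2, and the change was -0.24 (adjusted p = 0.127) with it and -0.36 (adjusted p = 0.0152) without it.

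**Figure D2:**
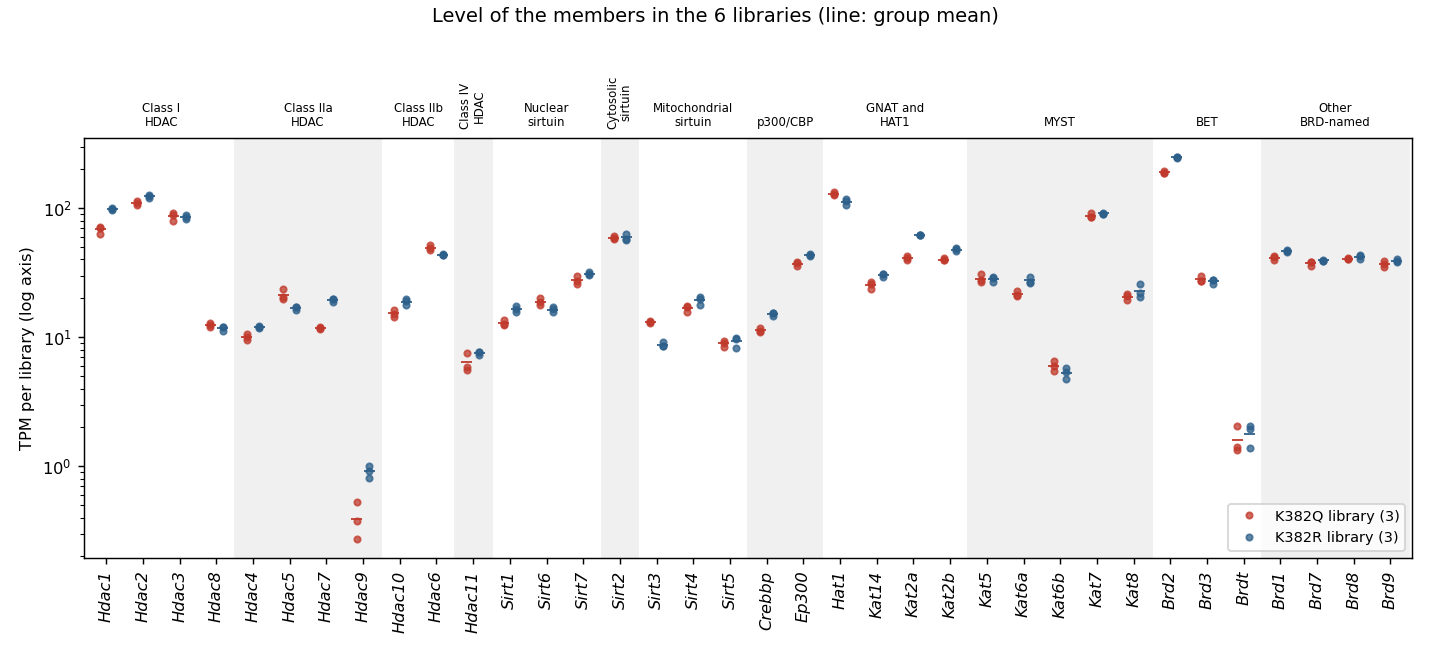
TPM (log y axis) of 36 of the 37 genes (x axis, grouped by class) in the 3 K382Q libraries (red) and the 3 K382R libraries (blue), with a line at each group mean. *Hdac9* is the lowest gene, *Brd2* the highest, and the groups lie apart for most of the genes shown, among them *Hdac1*, *Hdac7*, *Sirt3* and *Kat2a*.

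Among the sirtuins, *Sirt3*, which encodes the main deacetylase of mitochondria, had the largest rise of all 37 genes. *Sirt3* (chr7:140443579-140462222) was at 13.4, 13.1 and 12.9 TPM in K382Q and at 8.59, 9.12 and 8.50 TPM in K382R cells. The groups lay far apart for their spread, with means of 13.1 ± 0.250 and 8.74 ± 0.336 (SD, n = 3). This was a rise of 50.1% (log2 fold change 0.56, SE 0.0611, adjusted p = 0.000204 with limma), and of 0.71 on the median-ratio scale (adjusted p = 7.87e-05). The antisense neighbours *Psmd13* and *Ric8a* cover 5.21% and 5.38% of its exon bases and went the other way or did not pass the test (-0.39, adjusted p = 0.000305, and -0.14, adjusted p = 0.0937). The other mitochondrial sirtuins had no call as higher on either scale. *Sirt4* was at 15.6, 17.2 and 17.4 TPM in K382Q and at 17.8, 20.4 and 19.9 TPM in K382R cells, a fall of 0.20 on the log2 scale at the edge of the threshold (adjusted p = 0.0497) that was -0.05 on the median-ratio scale (adjusted p = 0.601). The *Sirt4* call was lost when any library other than K382R replicate 1 was left out (adjusted p = 0.0629 to 0.151). *Sirt5*, a desuccinylase, lay between 8.24 and 9.91 TPM with overlapping groups (-0.05, adjusted p = 0.702). *Sirt2*, a cytosolic tubulin deacetylase, lay between 57.0 and 63.5 TPM with overlapping groups and a change near 0 (adjusted p = 0.971).

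The nuclear sirtuins were split. *Sirt1*, a nuclear deacetylase of histones and of transcription factors including PPARγ, was at 13.6, 12.7 and 12.4 TPM in K382Q and at 15.6, 17.6 and 16.6 TPM in K382R cells. All K382Q libraries were below all K382R libraries, and the mean fell by 22.3% (log2 fold change -0.35, SE 0.0662, adjusted p = 0.0033 with limma, and -0.20 with adjusted p = 0.0351 on the median-ratio scale). *Herc4*, antisense over 12.46% of its exon bases, changed by -0.17 (adjusted p = 0.0271). *Sirt6*, a chromatin deacetylase of histone H3, was at 17.8, 20.1 and 18.6 TPM in K382Q and at 16.4, 17.01 and 15.6 TPM in K382R cells. The groups were close but did not overlap, and the rise of 15.4% (log2 fold change 0.20, SE 0.0633, adjusted p = 0.0328) was 0.35 on the median-ratio scale (adjusted p = 0.00489). This call was lost without K382Q replicate 2 or 3 or K382R replicate 1 or 3 (adjusted p = 0.0957, 0.0674, 0.0730 and 0.103).

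*Sirt7*, a sirtuin enriched in nucleoli, was at 29.7, 26.0 and 27.3 TPM in K382Q and at 32.0, 31.0 and 30.2 TPM in K382R cells. The groups were separated by less than 1 TPM between their nearest libraries. The fall of 0.17 on the log2 scale (adjusted p = 0.0433) was -0.02 on the median-ratio scale (adjusted p = 0.82) and lost its call when any library other than K382Q replicate 1 was left out (adjusted p = 0.0638 to 0.127). Within libraries, *Sirt3* was at 0.987, 1.04 and 1.04 times the level of *Sirt1* in K382Q cells and at 0.552, 0.519 and 0.513 times in K382R cells. *Sirt6* was at 1.32, 1.59 and 1.49 times the level of *Sirt1* in K382Q cells and at 1.06, 0.967 and 0.940 times in K382R cells. The summed level of the 7 sirtuins overlapped between the groups (157 ± 1.78 against 161 ± 6.71 TPM, SD, n = 3), while its members did not all move one way.

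**Figure D3:**
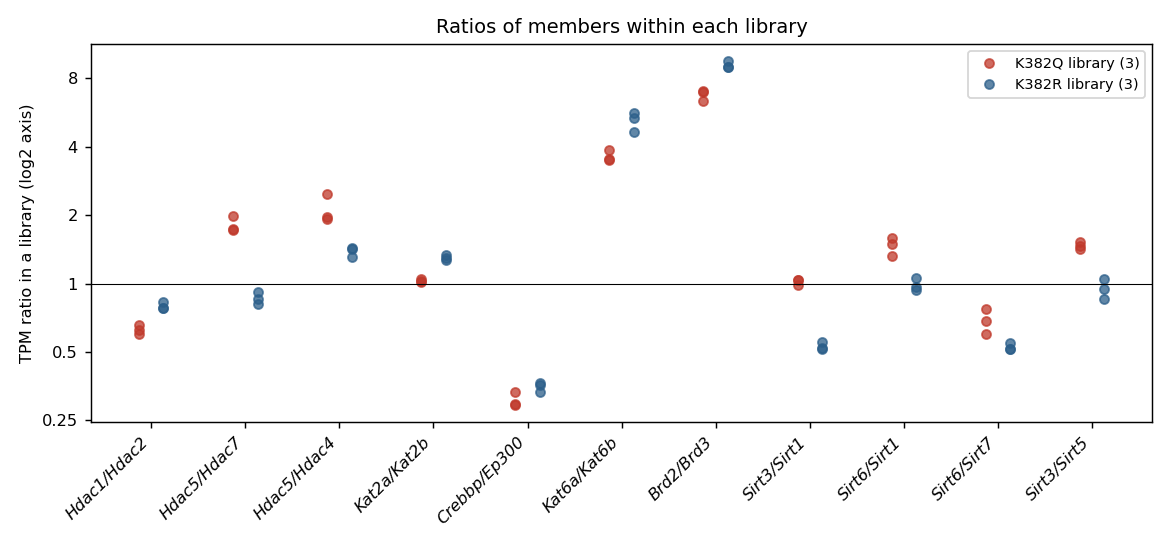
Ratio of the TPM of a pair of genes within each library (log2 y axis) for 11 of the 12 pairs (x axis), with 3 K382Q libraries (red) and 3 K382R libraries (blue). The groups do not overlap for any pair shown, and *Hdac5*/*Hdac7* lies above 1 in K382Q and below 1 in K382R cells.

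Among the acetyltransferases, 6 of 11 were lower (36.9% of all genes were) and 1 was higher (11.1% of all genes), and after median-ratio scaling 3 were lower and 2 higher, beside 20.4% and 19.8% of all genes. *Kat2a*, the acetyltransferase of the SAGA and ATAC coactivator complexes, had the largest fall. *Kat2a* (chr11:100595572-100603291) was at 42.7, 39.9 and 40.7 TPM in K382Q and at 62.1, 61.8 and 61.5 TPM in K382R cells. The K382R libraries were nearly identical to each other, and the mean was lower by 33.4% in K382Q cells (log2 fold change -0.58, SE 0.0379, adjusted p = 1.59e-05 with limma, and -0.43 with adjusted p = 5.6e-05 on the median-ratio scale). *Kat2b*, its paralog PCAF, was at 40.9, 39.4 and 39.5 TPM in K382Q and at 48.1, 48.7 and 46.2 TPM in K382R cells. That fall of 0.25 on the log2 scale (adjusted p = 0.00118) was smaller and was -0.10 on the median-ratio scale (adjusted p = 0.0654). The paralogs were therefore at about the same level in K382Q cells, with *Kat2a* at 1.04, 1.01 and 1.03 times *Kat2b*, and at 1.29, 1.27 and 1.33 times in K382R cells. *Kat14*, another subunit of ATAC, fell by 0.24 on the log2 scale (adjusted p = 0.00839), with -0.10 on the median-ratio scale (adjusted p = 0.261).

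*Hat1*, which acetylates newly made histone H4 before it is assembled into chromatin, was the only acetyltransferase called higher on the TPM scale. It was at 129.5, 127 and 133 TPM in K382Q and at 106, 113 and 118 TPM in K382R cells, the most abundant of the 11 in every library. The groups did not overlap, and the rise was 15.3% (log2 fold change 0.21, SE 0.0436, adjusted p = 0.00573 with limma, and 0.36 with adjusted p = 0.00045 on the median-ratio scale).

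*Crebbp* and *Ep300* encode CBP and p300, paralogous coactivators of nuclear receptors. *Crebbp* was at 11.2, 11.8 and 10.99 TPM in K382Q and at 15.4, 14.5 and 15.5 TPM in K382R cells. It was lower by 25.2% without overlap (log2 fold change -0.40, SE 0.0594, adjusted p = 0.000928 with limma, and -0.26 with adjusted p = 0.0112 on the median-ratio scale). *Ep300* was at 38.1, 35.6 and 37.3 TPM in K382Q and at 42.2, 43.8 and 43.5 TPM in K382R cells. Its fall of 14.3% (-0.22, adjusted p = 0.00337) was close to that of the median gene and -0.07 (adjusted p = 0.186) on the median-ratio scale. *Ep300* was the more abundant of the pair in every library, with *Crebbp* at 0.293 to 0.331 of its level in K382Q and 0.332 to 0.365 in K382R cells, groups that nearly touch at K382Q replicate 2 and K382R replicate 2.

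In the MYST family, *Kat6a* was at 22.9, 21.3 and 21.0 TPM in K382Q and at 26.9, 26.5 and 29.1 TPM in K382R cells. It was lower by 20.9% without overlap (log2 fold change -0.33, SE 0.0575, adjusted p = 0.00213 with limma, and -0.18 with adjusted p = 0.0276 on the median-ratio scale). *Kat6b*, its paralog, was at 6.51, 5.51 and 5.97 TPM in K382Q and at 4.75, 5.72 and 5.41 TPM in K382R cells, overlapping groups with a change of 0.17 (adjusted p = 0.223), or 0.30 (adjusted p = 0.0399) on the median-ratio scale. *Kat5*, the catalytic subunit of the NuA4 complex, *Kat7*, an acetyltransferase linked to replication origins, and *Kat8*, the enzyme of the MSL and NSL complexes, overlapped between the groups. Their changes were 0.00, -0.06 and -0.14 (adjusted p = 0.99, 0.246 and 0.201), and *Rnaseh2c*, antisense over 17.6% of the exon bases of *Kat5*, changed by 0.04 (adjusted p = 0.707).

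**Figure D4:**
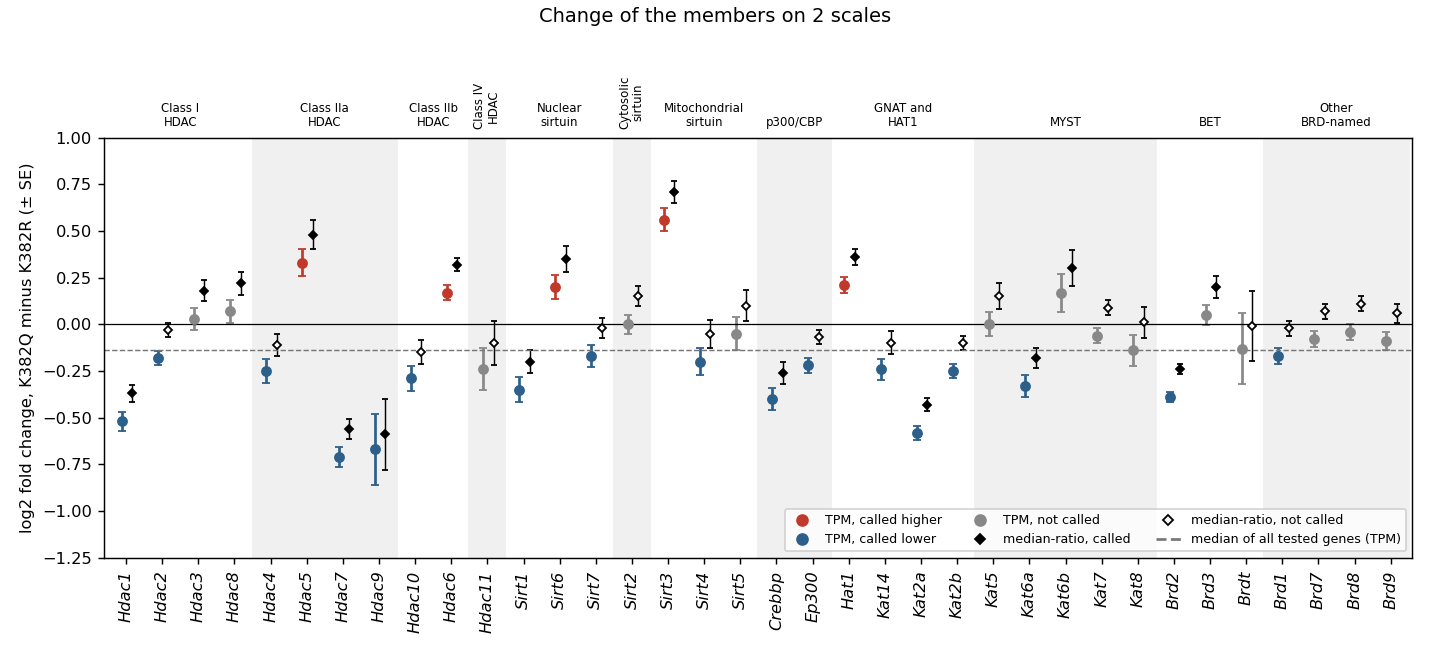
Log2 fold change (K382Q minus K382R, y axis, bars are ± SE) of 36 of the 37 genes (x axis, by class) on the TPM scale (circles, coloured by call) and after median-ratio scaling (diamonds, filled where called). The dashed line marks the median of all genes tested on the TPM scale, -0.14, and *Sirt3* is the highest gene on both scales, and *Hdac7* and *Hdac9* are the lowest.

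Of the 8 genes named Brd, 3 were lower and 0 higher on the TPM scale by limma (0 higher also at an unadjusted p under 0.05), beside 36.9% and 11.1% of all genes. After median-ratio scaling 2 were lower and 1 higher, beside 20.4% and 19.8%. The BET readers tether transcription factors and elongation factors to acetylated chromatin. *Brd2* (chr17:34330997-34341608), the most abundant of the 37, was at 193, 188 and 189 TPM in K382Q and at 249, 250.5 and 246 TPM in K382R cells. The replicates of each group differed by less than 3% of the mean and the groups by 23.6% (log2 fold change -0.39, SE 0.0263, adjusted p = 1.92e-05 with limma, and -0.24 with adjusted p = 0.000286 on the median-ratio scale). *H2-DMa*, antisense over 6.05% of the exon bases of *Brd2*, fell from 6.41 to 3.59 TPM (-0.76, adjusted p = 0.00613 with limma). *Brd3*, a paralog of *Brd2*, was at 27.4, 29.7 and 27.2 TPM in K382Q and at 27.7, 27.9 and 25.9 TPM in K382R cells. Its groups overlapped, with a change of 0.05 (adjusted p = 0.514), or 0.20 (adjusted p = 0.0288) on the median-ratio scale. *Brd2* was at 7.04, 6.34 and 6.95 times the level of *Brd3* in K382Q and at 8.97, 8.99 and 9.53 times in K382R cells. *Brdt*, the testis member, lay between 1.34 and 2.07 TPM in all 6 libraries (-0.13, adjusted p = 0.613).

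The remaining Brd genes are subunits of larger complexes and moved little. *Brd1*, a scaffold of MYST acetyltransferase complexes, was at 41.8, 39.7 and 42.5 TPM in K382Q and at 46.1, 47.6 and 45.6 TPM in K382R cells. It fell by 0.17 on the log2 scale (adjusted p = 0.0121) and was at -0.02 on the median-ratio scale (adjusted p = 0.773). *Brd7* and *Brd9*, of the PBAF and non-canonical BAF remodellers, and *Brd8*, of NuA4, lay between 34.9 and 43.0 TPM. Their changes were -0.08, -0.09 and -0.04 (adjusted p = 0.173, 0.166 and 0.432). *Adcy7*, antisense over 28.41% of the exon bases of *Brd7*, fell from 3.34 to 1.23 TPM (-1.15, adjusted p = 0.000434).

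Of the 37, 11 kept a call in the same direction under all 18 alternative settings: *Sirt3*, *Hdac5*, *Hdac6* and *Hat1* as higher, and, among those lower, *Hdac1*, *Hdac7*, *Kat2a*, *Kat6a*, *Crebbp* and *Brd2*. The 4 higher genes were 10.8% of the 37 against 7.28% of all genes with such calls, and the 7 lower ones 18.9% against 18.6%. Their adjusted p across those settings reached at most 0.04, for *Hdac6*. *Sirt1* kept its call under 17 of the 18.

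The partners of these enzymes were taken from general knowledge as 6 lists with 136 gene IDs, of which 130 passed the TPM filter. Of these, 14 were higher (10.8%, against 11.1% of all genes) and 55 lower (42.3%, against 36.9%) in K382Q cells. *Rbbp7*, *Brpf1*, *Brpf3* and *Yeats2* each stand in 2 lists and are counted in both below. Among 27 partners of deacetylase complexes, 2 rose and 14 fell, and after median-ratio scaling, on which 19.8% of all genes were higher and 20.4% lower, 9 rose and 7 fell. *Sap30*, a Sin3 subunit, rose from 29.6, 29.3 and 31.5 TPM in K382R to 38.5, 44.1 and 41.6 TPM in K382Q cells (log2 fold change 0.45, adjusted p = 0.000506 with limma). *Chd3*, a NuRD remodeller, fell from 48.9, 43.5 and 45.1 to 34.6, 30.2 and 29.2 TPM (-0.54, adjusted p = 0.000578). Among 41 partners of acetyltransferase complexes, 1 rose and 22 fell, or 6 and 12 after median-ratio scaling, beside the same shares of all genes. *Trrap*, the scaffold that the SAGA complex of *Kat2a* and the NuA4 complex of *Kat5* share, was at 24.7, 24.9 and 24.4 TPM in K382Q and at 37.9, 41.1 and 37.2 TPM in K382R cells (-0.64, adjusted p = 3.46e-05). *Jade2*, a scaffold of *Kat7* complexes, was the one that rose (0.30, adjusted p = 0.0188). Among 32 other bromodomain and YEATS genes, 2 rose and 14 fell, or 6 and 9 after median-ratio scaling, again beside those shares. *Sp110*, an interferon-inducible nuclear body gene, was at 2.54, 2.21 and 1.34 TPM in K382Q and at 5.28, 6.13 and 4.50 TPM in K382R cells (-1.22, adjusted p = 0.00169), and *Trim66* rose by 0.60 (adjusted p = 0.0121).

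The genes that supply acetyl-CoA, the donor of the acetyltransferases, were tested as 12 genes. Of these, 6 rose and 3 fell, beside 11.1% and 36.9% of all genes, and 8 rose and 2 fell after median-ratio scaling, beside 19.8% and 20.4%. Their median log2 fold change was 0.06. *Acss2*, which makes acetyl-CoA from acetate in nucleus and cytosol, was at 169, 175 and 168 TPM in K382Q and at 72.9, 77.2 and 69.5 TPM in K382R cells. Its groups were far apart (log2 fold change 1.22, SE 0.0431, adjusted p = 1.1e-06 with limma), while *Acly*, which makes it from citrate, changed by -0.25 (adjusted p = 0.000277). *Crat*, carnitine acetyltransferase, rose by 0.72 (adjusted p = 5.56e-06), and *Slc33a1*, the acetyl-CoA transporter of the endoplasmic reticulum, fell by 0.26 on the log2 scale (adjusted p = 0.00106).

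For NAD, the cosubstrate of the sirtuins, 2 of 15 gene IDs tested rose and 3 fell, beside 11.1% and 36.9% of all genes, or 5 and 3 after median-ratio scaling, beside 19.8% and 20.4%. *Nnt* was listed under 2 of these IDs. *Nampt*, the rate-limiting enzyme of NAD salvage, was at 203, 194 and 200.4 TPM in K382Q and at 156, 152 and 153 TPM in K382R cells (0.37, adjusted p = 4.46e-05 with limma). *Nadk2*, the mitochondrial NAD kinase, was at 52.2, 51.5 and 48.2 TPM in K382Q and at 33.4, 34.4 and 37.5 TPM in K382R cells (0.52, adjusted p = 0.000172). These were the only genes of the list that rose on the TPM scale, and *Parp1* and *Nnmt*, which consume NAD and its precursor nicotinamide, fell by 0.41 and 0.49 on the log2 scale (adjusted p = 6.99e-05 and 0.00162). Of 7 genes tested as *Pparg* and its partners, 1 rose and 2 fell, beside 11.1% and 36.9% of all genes. After median-ratio scaling 2 were higher and 2 lower, beside 19.8% and 20.4%. *Prdm16*, left out by the TPM filter, lay between 0.0442 and 0.138 TPM over both groups. *Ppargc1a*, a coactivator deacetylated by sirtuins, rose from 1.93, 1.88 and 1.53 to 5.00, 4.57 and 4.28 TPM (1.17, adjusted p = 0.000163). *Ncoa1* and *Pparg* were lower.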

How the data were processed

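RNA-seq libraries of 3 K382Q and 3 K382R replicates were analysed. The authors trimmed reads with TrimGalore 0.6.7, aligned them to GRCm39 with HISAT2 2.2.1, sorted them with SAMtools 1.14 and ran StringTie 2.2.1 for gene levels. The annotation release is not given in the sources used here. Coverage, as deposited, gives the depth of reads averaged over the bases of a gene. The authors divided it by the aligned bases of the library for FPKM and brought each library to an equal sum for TPM, both as deposited. No counts were used here, so the authors' count test was replaced by limma 3.58.1 (R 4.3.3), K382Q against K382R. Values entered as log2(TPM + 0.5), the variance was allowed to follow intensity, and 15426 genes reached a TPM of 0.5 in 3 or more libraries. Log2 fold changes on this scale understate the change of low genes. P-values were adjusted by Benjamini-Hochberg over all genes tested. Depth is the most common ratio of coverage to FPKM in a library, and precision is that of 3 replicates. That ratio was met by 2069 to 2121 genes per library, of 11909 to 11976 with a ratio, and the other genes differed from it. Intervals for counting error could not be given.

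The genes, the partner lists and the gene pairs were chosen with earlier results of these data known. Genes of the 37 were all to be named, but a few genes are left out of the text. From each partner list, the genes with the largest rise and fall among those called without overlap between the groups were named. *Acly*, *Crat*, *Nampt*, *Parp1*, *Ncoa1* and *Prdm16* were added after their values were seen. Exonic overlaps were taken from GENCODE mouse release 39 on GRCm39, which held 99.0% of the gene IDs. Promoter windows are RefSeq's. The test was tried on simulated data. Same-numbered replicates did not deviate together (correlations of -0.018, 0.051 and 0.022), so the numbers were not used as pairs. The 18 alternatives were pseudocounts of 1 and 0.1, no filter, a TPM of at least 1, FPKM, quantile normalization, median-ratio scaling, array weights, a variance without trend, a block for the replicate number, omission of each library in turn, and, added after seeing the data, removal of a length or a GC trend.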

Additional observations from a re-analysis of the deposited data

How the results depend on the processing

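Scaling moved the counts most, and the cause was not tested. The 1717 higher and 5698 lower genes became 3057 and 3153 with median-ratio scaling, 2954 and 3242 with quantile normalization, and 2643 and 3447 with a length trend removed. With a GC trend removed 2648 genes were higher. Of the 37 genes, 9 were higher and 9 lower with median-ratio scaling, 11 and 8 with quantile normalization, and 9 and 8 without the length trend, and 11 were lower without the GC trend. The pseudocount of 0.1 gave 1 gene over 2-fold. Of the partner genes, 25 were higher with FPKM, 35 with median-ratio scaling, 34 with quantile normalization, 32 without the length trend and 30 without the GC trend, and 34 were lower under median-ratio scaling, quantile normalization and length removal alike. Leaving out 1 library gave 1443 to 1546 higher and 4939 to 5511 lower genes overall. Of 665 single-gene values under an alternative, 546 kept their direction and side of the threshold, 64 lost the call, 13 gained one and 42 changed sign.

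All sign changes but that of *Brd1* were in genes without a call. With median-ratio scaling the log2 fold changes were 0.15 for *Sirt2*, 0.10 for *Sirt5*, 0.09 for *Kat7*, 0.01 for *Kat8*, 0.07 for *Brd7*, 0.11 for *Brd8* and 0.06 for *Brd9*. With quantile normalization they were 0.15 for *Sirt2*, 0.11 for *Sirt5*, 0.08 for *Kat7*, 0.01 for *Kat8*, 0.0036 for *Brd1*, 0.08 for *Brd7*, 0.13 for *Brd8* and 0.06 for *Brd9*. With FPKM they were 0.08 for *Sirt2*, 0.03 for *Sirt5*, 0.02 for *Kat7*, 0.0050 for *Brd7* and 0.04 for *Brd8*. Without the length trend they were 0.10 for *Sirt2*, 0.06 for *Sirt5*, 0.08 for *Kat7*, 0.02 for *Brdt*, 0.06 for *Brd7*, 0.11 for *Brd8* and 0.04 for *Brd9*. Without the GC trend they were 0.09 for *Sirt2*, 0.05 for *Sirt5*, 0.03 for *Kat7*, 0.02 for *Brd7* and 0.06 for *Brd8*. Array weights gave -0.0013 for *Hdac3* and -0.0044 for *Kat5*. Leaving out 1 library gave -0.02 to -0.0017 for *Hdac3*, 0.01 to 0.05 for *Sirt2*, 0.0036 for *Sirt5* and -0.06 to -0.04 for *Kat5*.

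Class sums, as the log2 ratio of K382Q to K382R, were with FPKM and with median-ratio scaling -0.12 and -0.05 for class I, -0.10 and -0.03 for class IIa, 0.13 and 0.20 for class IIb, -0.02 and 0.04 for nuclear sirtuins, 0.14 and 0.21 for mitochondrial sirtuins, -0.19 and -0.12 for p300 and CBP, -0.01 and 0.06 for GNAT with *Hat1*, -0.01 and 0.06 for MYST, -0.26 and -0.19 for BET, and -0.01 and 0.05 for the other Brd genes. With the replicate number as a block, 1600 genes were higher and 5387 lower, and 5 and 18 of the 37. The planned DESeq2 alternative was not run, since no counts were used. With 3 libraries a group and unknown counts, small changes of low genes such as *Brdt* cannot be resolved from their spread.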
